A study of Rattus norvegicus with 35 samples.

Results

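Livers of rats fed propiconazole at 2500 ppm were compared with livers of rats fed the same fungicide at 500 ppm, across all probe sets of the array. The arrays were chosen by their titles: 4 arrays were titled as propiconazole at 2500 ppm, and 3 of the 5 arrays titled as propiconazole at 500 ppm hold values, so that 7 of the 32 arrays with values (35 arrays are listed) entered the comparison. The animals were Wistar Han IGS rats. All of them, the 7 controls included, followed the same schedule from gestation day 6 to postnatal day 92, with propiconazole in the feed of the treated groups and none in that of the controls. Each array carried liver RNA of 1 animal on an Affymetrix rat genome array. The other arrays, from rats fed myclobutanil or triadimefon, served here to estimate the spread between animals. The sex of the animals and whether animals of a group were littermates were not stated in the sources used here. At 500 ppm, replicates 3 and 4 were left out of the submitters' final analysis and have no values, so this group rests on replicates 1, 2 and 5.

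Propiconazole is a triazole fungicide. Triazoles block fungal CYP51, a cytochrome P450 that demethylates a sterol precursor, and rats carry the related enzyme Cyp51 in the cholesterol pathway. In rodent liver, triazoles are also known as activators of the nuclear receptors CAR and PXR, which switch on P450 enzymes of the Cyp2b and Cyp3a families, esterases, glucuronosyltransferases, glutathione transferases and efflux transporters that oxidise, conjugate and export foreign compounds. The comparison asks which of these genes, and which others, differ between a higher and a lower dietary level of 1 compound.

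Values are the scores deposited for each probe set. Their scale and log base are not stated, so a difference of scores is reported as a difference and not as a fold change. The 17 measured hepatocyte markers had a mean score of 4.26 to 4.39 at 500 ppm and 4.11 to 4.91 at 2500 ppm. The 15 measured testis markers, examined because testis is named in the labels' extraction protocol, had a mean score of -0.00142 to 0.078 at 500 ppm and 0.0564 to 0.112 at 2500 ppm, against -0.105 to 0.167 in the controls. Replicate 2 at 500 ppm was the array least like the others: its correlations with the other 6 propiconazole arrays across probe sets were 0.974 to 0.982, and those of the remaining 15 pairs were 0.986 to 0.995. Replicate 2 at 2500 ppm had the highest hepatocyte marker mean, 4.91, while the other 3 arrays of that level lay between 4.11 and 4.30. The 3' minus 5' score difference of the GAPDH and beta-actin control probe sets, a reading of RNA integrity in which a higher value marks more degraded RNA, was 0.694 ± 0.139 (SD, n = 3) at 500 ppm and 0.609 ± 0.0672 (SD, n = 4) at 2500 ppm. These groups overlapped (exact permutation test, two-sided, p = 0.286). In the controls it was 1.30 ± 0.595 (SD, n = 7).

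No probe set passed the threshold between the 2 levels. In a limma fit over all 7 groups of the series, 0 of 31042 probe sets (0.0%) reached an adjusted p below 0.05, and the smallest adjusted p was 0.999972. At an unadjusted p below 0.05, 365 probe sets (1.18%) were found, 146 higher and 219 lower at 2500 ppm. The median difference over all probe sets was -0.00633, with a median standard error of 0.0516. The p-values measure the spread between animals, which the series' design text calls biological replicates, pooled over the 7 groups. The GAPDH 3' minus 5' difference was 0.249 to 0.584 in the propiconazole arrays and reached 2.62 in another group. The pooled spread can thus also hold differences in RNA integrity, which was not tested. Among arrays of a GAPDH difference of 0.9 or lower, 859 probe sets had an unadjusted p below 0.05 and 0 passed. With 3 animals against 4, an exact permutation test on a single gene has 35 arrangements and cannot give a two-sided p below 0.0571. In the same fit, 0 probe sets (0.0%) separated 500 ppm from control and 79 (0.254%) separated 2500 ppm from control, 41 higher and 38 lower. The latter count ranged from 8 without replicate 4 at 2500 ppm to 1030 without control replicate 3, and it was 21 among arrays of a GAPDH difference of 0.9 or lower. By the animal numbers in the titles, control replicates 5 to 7 are 3144, 3145 and 3156. The other controls are numbered 2552 to 2561 and the propiconazole animals 2627 to 2654. Among animals numbered below 3000, which leaves out control replicates 5 to 7, the count was 9. Of the 17 named genes called against control at 2500 ppm, 3 passed in all 22 alternatives: Ces2c, Htatip2 and the Cyp2b probe set. Without replicate 4 at 2500 ppm 4 of the 17 passed, without replicate 1 of that level 6 passed, and among arrays of a GAPDH difference of 0.9 or lower 5 passed, so each call below is given with the single arrays without which it was lost. These comparisons share arrays with each other, and their values are set side by side below only to place the 2 levels.

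The genes with the smallest p included enzymes and a transporter of foreign-compound handling on the higher side and enzymes of amino acid breakdown on the lower side. None of them passed the threshold, so they are given as values. On the gene level, with 1 probe set for each of 14217 genes, 71 genes (0.499%) had an unadjusted p below 0.05 and were higher at 2500 ppm, and 94 (0.661%) were lower. All 4 arrays at 2500 ppm lay above all 3 at 500 ppm for 180 genes (1.27%) and below them for 248 (1.74%). The largest difference upward was that of Aldh1a1, 1.14, and the largest downward that of Sds, -1.02.

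RefSeq promoter entries of the GRCr8 build, which run from 250 bases before to 50 after the start of a gene, were matched by symbol for 12 of the 16 symbols behind 15 genes followed in every comparison. Gsta3 has 2 entries under its symbol and was not resolved further. The promoters of Cidea, Ces2c and Aldh1a1 are shown because these were the 3 matched genes of smallest p for the dose difference. Each was read on its gene's strand, 5' to 3', and capitals mark the letters GCGTG, the core recognised by the Ah receptor, found on either strand.
Cidea, chr18:63164567-63164866, plus strand: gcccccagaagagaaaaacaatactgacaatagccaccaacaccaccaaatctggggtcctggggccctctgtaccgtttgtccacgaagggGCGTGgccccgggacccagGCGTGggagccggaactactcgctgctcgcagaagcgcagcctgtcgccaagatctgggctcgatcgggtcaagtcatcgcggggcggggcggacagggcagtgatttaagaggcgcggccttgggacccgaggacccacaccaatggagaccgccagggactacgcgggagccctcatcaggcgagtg
Ces2c, chr1:270376951-270377250, plus strand: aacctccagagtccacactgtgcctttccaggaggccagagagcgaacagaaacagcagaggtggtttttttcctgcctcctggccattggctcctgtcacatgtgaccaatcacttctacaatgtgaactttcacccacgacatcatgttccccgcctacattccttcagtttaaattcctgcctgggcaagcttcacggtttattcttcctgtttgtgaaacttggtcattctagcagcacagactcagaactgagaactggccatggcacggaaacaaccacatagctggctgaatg
Aldh1a1, chr1:227537370-227537669, plus strand: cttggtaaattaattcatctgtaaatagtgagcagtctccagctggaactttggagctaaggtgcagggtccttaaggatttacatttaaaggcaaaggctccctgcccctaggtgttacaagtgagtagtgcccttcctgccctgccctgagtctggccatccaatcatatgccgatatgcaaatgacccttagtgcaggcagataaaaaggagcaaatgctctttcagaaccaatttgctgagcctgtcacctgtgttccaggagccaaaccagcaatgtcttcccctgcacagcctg
The motifs searched on both strands were GCGTG, the antioxidant response core TGACNNNGC and the hexamer AGGTCA bound by nuclear receptors. The Cidea window held GCGTG at 2 places that do not overlap, and the Ces2c and Aldh1a1 windows held none of the motifs. Among all 33469 promoters, 29.7% held GCGTG, 12.1% held TGACNNNGC and 16.2% held AGGTCA. Of the 12 matched symbols, 6 held GCGTG, 1 held TGACNNNGC, which was Gsta3, and 3 held AGGTCA, which were Cyp1a2, Cyp3a23-3a1 and Por. A match is a run of letters and not a measured binding site.

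Among the oxidising enzymes, Aldh1a1, a cytosolic aldehyde dehydrogenase that makes retinoic acid, had the largest difference. It scored 1.30, 2.34 and 3.05 in replicates 1, 2 and 5 at 500 ppm and 3.31, 3.39, 2.95 and 3.81 in replicates 1 to 4 at 2500 ppm, while the controls ran from 0.888 to 2.09. Replicate 1 of the low level lay within the control range only through control replicate 7, at 0.888. The other controls ran from 1.83 to 2.09, above it. Replicate 5 lay among the arrays of the high level, above replicate 3 of that group. The difference was 1.14 ± 0.311 (SE), with a 95% interval of 0.498 to 1.78 (limma, unadjusted p = 0.0011, adjusted p = 0.999972). Without replicate 5 it was 1.54 (adjusted p = 0.246), and without replicate 1 of the same level it was 0.673. Against control, Aldh1a1 rose by 1.53 at 2500 ppm (limma, adjusted p = 0.007). This call was lost without replicate 4 at 2500 ppm (adjusted p = 0.0694), among arrays of a GAPDH difference of 0.9 or lower (0.0746) and among animals numbered below 3000 (0.0825). At 500 ppm its difference from control was 0.39 (limma, adjusted p = 0.607).

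Ces2c, a liver carboxylesterase, scored 1.22, 1.42 and 2.17 at 500 ppm and 2.37, 2.60, 1.81 and 2.76 at 2500 ppm. Replicates 1 and 2 of the low level stood near the control range of 0.936 to 1.40, and replicate 5 again lay above replicate 3 of the high level. The difference was 0.783 ± 0.199 (SE), with a 95% interval of 0.374 to 1.19 (limma, unadjusted p = 0.000536), and 1.07 without replicate 5 (adjusted p = 0.122). Without replicate 1 at 500 ppm it was 0.590. Ces2c rose against control at 2500 ppm by 1.21 (limma, adjusted p = 0.000863). The Cyp2b probe set, shared by Cyp2b1 and Cyp2b2, the phenobarbital-inducible P450s of rat liver, scored 3.70, 3.71 and 4.57 at 500 ppm and 4.48, 5.39, 4.35 and 4.73 at 2500 ppm. Every array of both levels lay above every control, which ran from 2.14 to 3.03. The dose difference was 0.742 ± 0.377 (SE), and its 95% interval of -0.0309 to 1.51 included 0 (limma, unadjusted p = 0.0592). The Cyp2b probe set rose against control at 2500 ppm by 2.22 (limma, adjusted p = 0.000863). At 500 ppm it differed from control by 1.48, which did not pass (limma, adjusted p = 0.527).

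Of the Cyp1a P450s, which are induced through the Ah receptor, Cyp1a1 had the larger dose difference. Cyp1a1, which oxidises polycyclic aromatic compounds, scored -0.123, 0.627 and 1.37 at 500 ppm and 1.72, 1.69, 1.13 and 2.09 at 2500 ppm. The order of the low arrays was the same as for Aldh1a1, with replicate 1 just below the controls (-0.112 to 0.342) and replicate 5 above replicate 3 of the high level. Its difference was 1.03 ± 0.44 (SE), with a 95% interval of 0.127 to 1.93 (limma, unadjusted p = 0.0269). It was 0.657 without replicate 1 at 500 ppm and 1.40 without replicate 5 (limma, unadjusted p = 0.187 and 0.00759). Cyp1a1 differed from control by 1.60 at 2500 ppm, which did not pass (limma, adjusted p = 0.0523). Its neighbour Cyp1a2, which metabolises caffeine, scored 3.65 to 4.21 at 500 ppm and 3.85 to 4.74 at 2500 ppm, a difference of 0.133 with a 95% interval of -0.556 to 0.822. The sign of the Cyp1a2 difference turned without replicate 1 at 500 ppm or replicate 2 at 2500 ppm. Of the 9 measured Ah receptor genes, 1 had an unadjusted p below 0.05, which was Cyp1a1, and the list's median difference was 0.0241, or 0.0128 to 0.0736 leaving out single arrays, the extremes being without replicates 2 and 3 at 2500 ppm.

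The P450s best known as PXR and sterol markers showed intervals that spanned 0. Cyp3a23-3a1, the main inducible Cyp3a enzyme of the rat, differed by 0.223 between the levels, with a 95% interval of -0.703 to 1.15. Por, the reductase that supplies P450s with electrons, differed by 0.238, with an interval of -0.179 to 0.656. Cyp51, the mammalian counterpart of the fungicide's target, differed by 0.16, with an interval of -0.498 to 0.817. Cyp4a8, a fatty acid hydroxylase, scored 0.673, 1.03 and 1.59 at 500 ppm and 2.03, 1.87, 1.25 and 1.83 at 2500 ppm, with a difference of 0.643 ± 0.233 (SE; limma, unadjusted p = 0.0101). Its second probe set differed by 0.497. Cyp4a8 rose against control at 2500 ppm (limma, adjusted p = 0.0163). It did not pass without replicate 1, 2 or 4 at 2500 ppm (adjusted p = 0.0963, 0.0598 and 0.105) or among arrays of a GAPDH difference of 0.9 or lower (0.0956).

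Among the conjugating enzymes and transporters, Abcc3, an efflux pump for glucuronides and bile salts at the sinusoidal membrane, scored -0.0536, -0.0251 and 0.273 at 500 ppm and 0.308, 0.314, 0.227 and 0.843 at 2500 ppm. Replicates 1 and 2 of the low level stood close to the controls, which ran from -0.0807 to -0.0156, and the value of 0.843 belonged to replicate 4 of the high level. The difference was 0.358 ± 0.0976 (SE), with a 95% interval of 0.158 to 0.559 (limma, unadjusted p = 0.00105). It rose against control at 2500 ppm by 0.48 (limma, adjusted p = 0.007), a call that was lost among arrays of a GAPDH difference of 0.9 or lower (adjusted p = 0.179) and among animals numbered below 3000 (0.0863). Gsta3, a glutathione transferase, scored -0.0187, 0.35 and 1.05 at 500 ppm and 1.22, 1.24, 0.67 and 1.59 at 2500 ppm. For Gsta3 too, replicate 5 lay above replicate 3 of the high level and the other low arrays lay below all 4. The difference was 0.719 ± 0.268 (SE; limma, unadjusted p = 0.0123), and that from control at 2500 ppm, 0.893, did not pass (limma, adjusted p = 0.0707). Ugt2b1, a glucuronosyltransferase, scored 3.35, 2.77 and 3.74 at 500 ppm and 3.70, 4.27, 3.54 and 3.67 at 2500 ppm, with a difference of 0.507 and a 95% interval of -0.0685 to 1.08. It rose against control at 2500 ppm (limma, adjusted p = 0.0161), but not without replicate 1, 2 or 4 of that level (adjusted p = 0.0687, 0.0856 and 0.0641) or among animals numbered below 3000 (0.165).

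Akr7a3, a reductase that detoxifies aflatoxin aldehydes, was, with Adgrg6 and Jak2, 1 of 3 genes named for their p with all high arrays above all low ones. It scored 2.03, 1.85 and 2.89 at 500 ppm and 3.07, 3.06, 2.96 and 3.02 at 2500 ppm. The high arrays were close together and the low arrays were not, with replicate 5 just under the lowest high value. The exact permutation p was 0.0571, the smallest this design can give, and the difference was 0.769 ± 0.29 (SE; limma, unadjusted p = 0.0133).

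**Figure D1:**
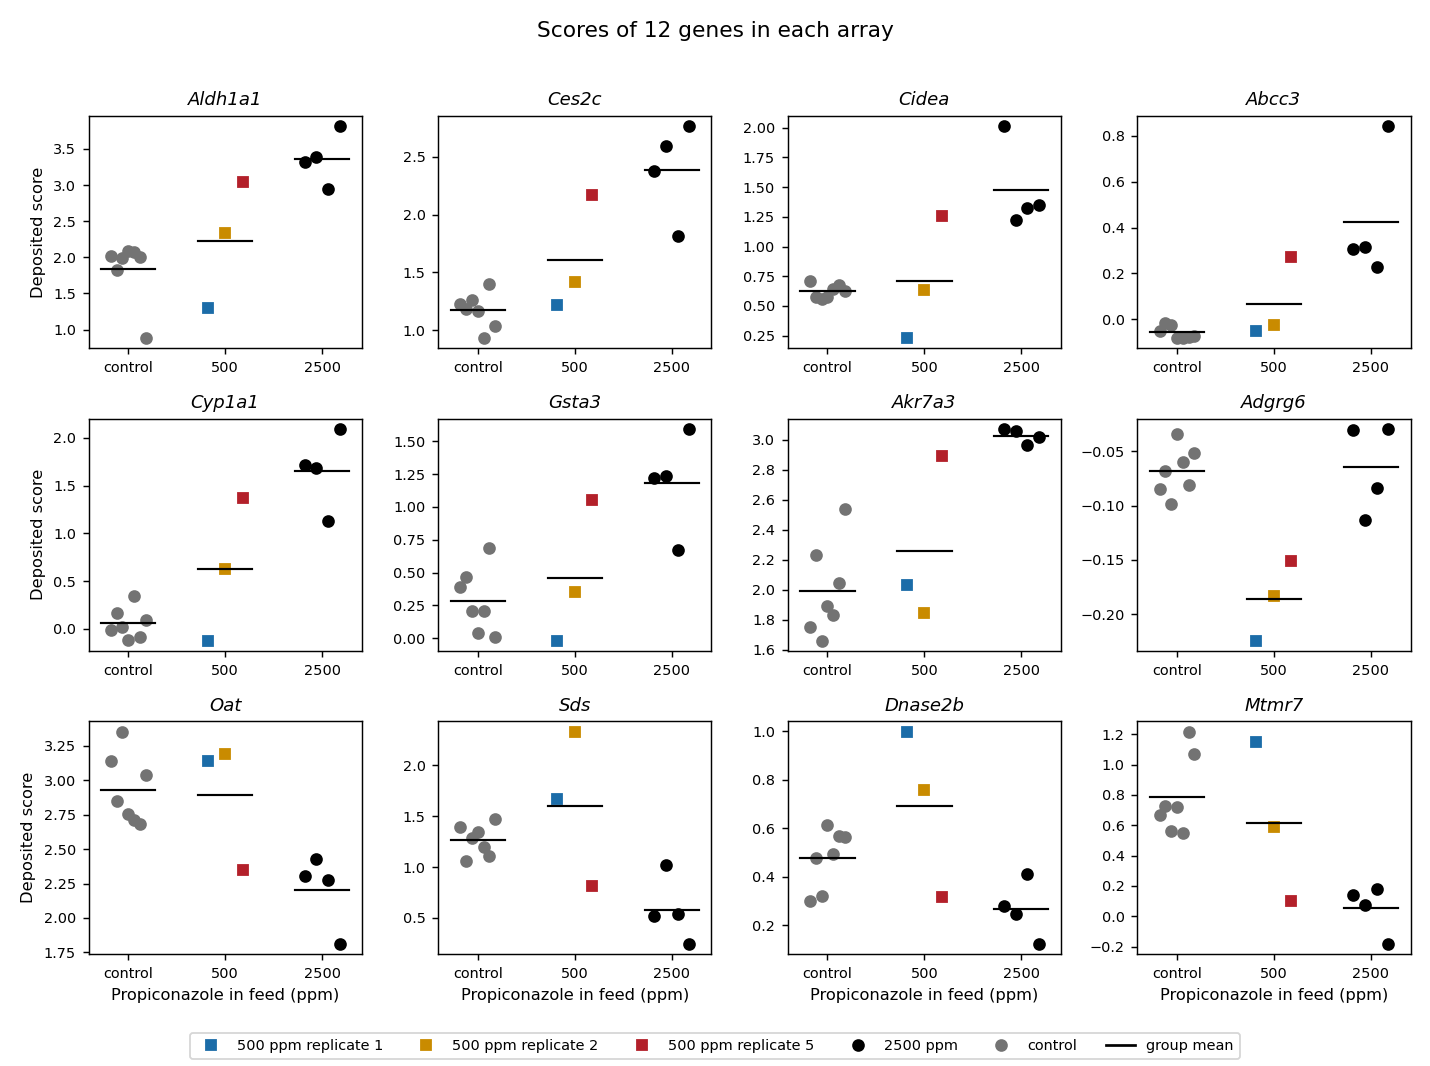
Deposited scores of 12 genes (vertical axes) in each array of the control, 500 ppm and 2500 ppm groups (horizontal axes); squares are the 500 ppm arrays coloured by replicate, circles the other arrays and lines the group means. For Aldh1a1 the 500 ppm squares sit at 1.30, 2.34 and 3.05 and the 2500 ppm circles between 2.95 and 3.81; for Sds replicate 5 at 500 ppm, 0.814, lies among the 2500 ppm arrays.

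Cidea, a lipid droplet protein that is low in lean liver, scored 0.233, 0.636 and 1.26 at 500 ppm and 2.01, 1.23, 1.32 and 1.35 at 2500 ppm. The controls ran from 0.561 to 0.708, so replicate 1 of the low level lay below them and replicate 5 above them. The difference was 0.768 ± 0.191 (SE), with a 95% interval of 0.376 to 1.16 (limma, unadjusted p = 0.000427), and 1.04 without replicate 5 (adjusted p = 0.122). Without replicate 1 at 500 ppm it was 0.530. Cidea rose against control at 2500 ppm by 0.855 (limma, adjusted p = 0.0161). The call was lost without replicate 1 or 4 at 2500 ppm (adjusted p = 0.101 and 0.0641) and among arrays of a GAPDH difference of 0.9 or lower (0.125), where the difference was 0.864. At 500 ppm it differed from control by 0.0867 (limma, adjusted p = 0.855). Fabp5, a fatty acid binding protein, scored 1.28, 1.46 and 0.912 at 500 ppm and 1.01, 0.893, 0.962 and 0.757 at 2500 ppm, a difference of -0.313 with a 95% interval of -0.722 to 0.0951. It fell against control at 2500 ppm by 0.791 (limma, adjusted p = 0.0313), a call that was lost without any 1 of the 4 high arrays or of control replicates 4 to 7 (adjusted p = 0.052 to 0.173). The call was also lost among arrays of a GAPDH difference of 0.9 or lower (adjusted p = 0.248). With the 3' minus 5' difference as covariate, the difference from control was -0.517 (limma, adjusted p = 0.177). Cyp7b1, an oxysterol hydroxylase of the alternative bile acid pathway, was lower at 2500 than at 500 ppm by 0.183 ± 0.0659 (SE; limma, unadjusted p = 0.00996). It scored -0.0105, -0.231 and -0.351 at 500 ppm and -0.392, -0.3085, -0.387 and -0.433 at 2500 ppm, all below 0. A filter on the dimmest 40% of probe sets left it out. Without replicate 1 at 500 ppm the difference was -0.089 (limma, unadjusted p = 0.185). Cyp7b1 fell against control at 2500 ppm (limma, adjusted p = 0.027), and the call was lost without replicate 1, 3 or 4 at 2500 ppm or control replicate 4, 5 or 6 (adjusted p = 0.0629 to 0.16). The Cyp7b1 call was also lost among arrays of a GAPDH difference of 0.9 or lower (adjusted p = 0.435) and with the 3' minus 5' covariate (0.184).

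Of the 15 genes followed in every comparison, 13 were higher on average at 2500 than at 500 ppm. For the dose difference 8 of the 15 had an unadjusted p below 0.05. Among all genes, 0.499% had such a p and were higher at 2500 ppm, and 0.661% were lower. In 0 of the 15 did the 2 levels separate without overlap. Against control at 2500 ppm, 9 of the 15 passed the threshold, against 0.254% of all probe sets. The 15 were chosen with earlier results of these data known, so their counts beside these shares are not a test of a dose effect. Of the 9, only Ces2c and the Cyp2b probe set passed in all 22 alternatives.

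**Figure D2:**
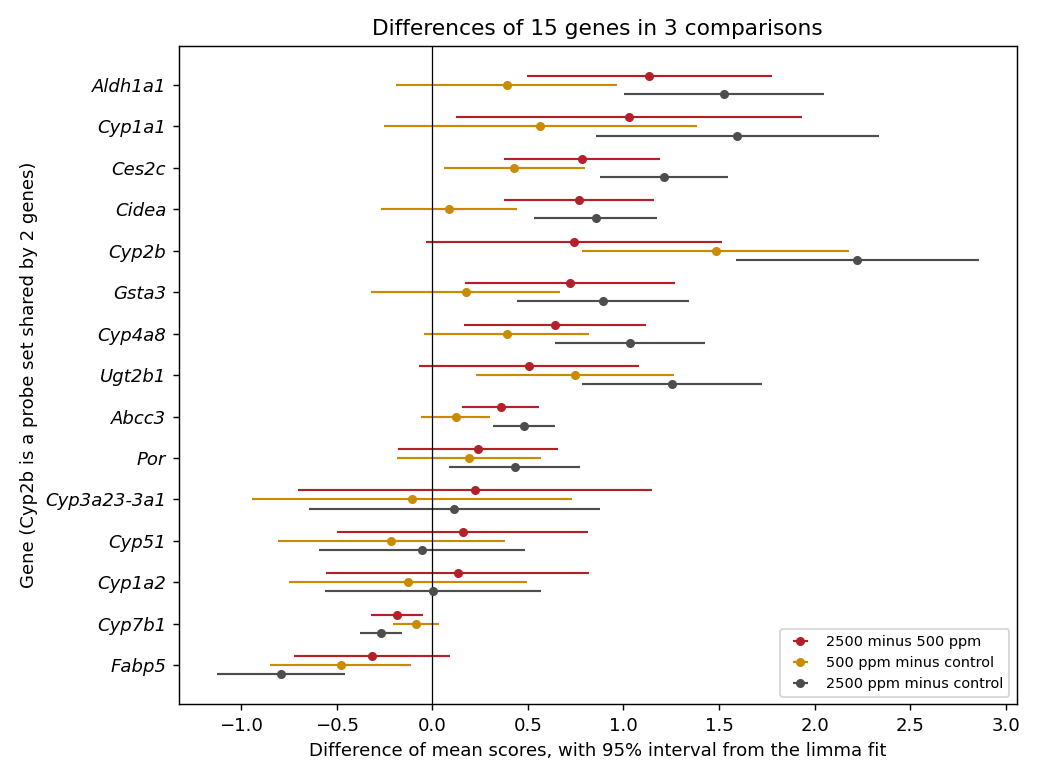
Differences of mean scores (horizontal axis) for 15 genes (vertical axis) in 3 comparisons, with 95% intervals from the limma fit. The intervals for 2500 minus 500 ppm, in red, exclude 0 for 8 genes, among them Aldh1a1 (0.498 to 1.78) and Ces2c (0.374 to 1.19), and include 0 for the Cyp2b probe set (-0.0309 to 1.51).

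Other genes of smallest p on the higher side have varied functions. Adgrg6, an adhesion G protein-coupled receptor, had the smallest p of all and scored -0.224, -0.184 and -0.151 at 500 ppm and -0.03, -0.113, -0.0838 and -0.0294 at 2500 ppm. All scores were below 0. The controls ran from -0.0981 to -0.034, and all 3 low arrays lay below them. Of the high arrays, 2 lay just above that range, 1 below it and 1 within it. Its difference was 0.122 ± 0.0301 (SE; limma, unadjusted p = 0.000383), while its second probe set differed by 0.00865. Anxa7, a calcium-dependent membrane binding protein, differed by 0.463 and rose against control at 2500 ppm (limma, adjusted p = 0.0415), but not without replicate 1, 2 or 4 of that level or any 1 of control replicates 4 to 7 (adjusted p = 0.0598 to 0.21). The second probe set of Anxa7 differed by 0.123 between the levels. Htatip2 differed by 0.243 and rose against control by 0.454 (limma, adjusted p = 0.000863). Arpp19, an inhibitor of a protein phosphatase, differed by 0.283 and rose against control at 2500 ppm (limma, adjusted p = 0.00602), but not without replicate 1 or 4 of that level (adjusted p = 0.0681 and 0.0641). Metap1d, a mitochondrial methionine aminopeptidase, differed by 0.299 and rose against control at 2500 ppm as well (limma, adjusted p = 0.0163), but not without replicate 1, 2 or 4 (adjusted p = 0.0955, 0.054 and 0.129). Among arrays of a GAPDH difference of 0.9 or lower, Anxa7, Arpp19 and Metap1d did not pass (limma, adjusted p = 0.38, 0.248 and 0.0956). Cryab, a small heat shock protein, differed by 0.622, Mdm2, the ubiquitin ligase of p53, by 0.334, and Zdhhc2, a palmitoyltransferase, by 0.318. These 3 did not pass against control (limma, adjusted p = 0.0622, 0.0595 and 0.0622).

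On the lower side, Sds, the serine dehydratase that turns serine into pyruvate, scored 1.67, 2.33 and 0.814 at 500 ppm and 0.518, 1.02, 0.538 and 0.249 at 2500 ppm. Replicates 1 and 2 of the low level lay above the control range of 1.06 to 1.47, and replicate 5 lay below it with the high arrays. The difference was -1.02 ± 0.342 (SE), with a 95% interval of -1.72 to -0.32 (limma, unadjusted p = 0.00595). It was -1.42 without replicate 5 and -0.661 without replicate 2. Oat, the mitochondrial ornithine aminotransferase, scored 3.14, 3.19 and 2.35 at 500 ppm and 2.30, 2.43, 2.28 and 1.81 at 2500 ppm, against 2.68 to 3.35 in the controls. Its low arrays fell into the same order as those of Sds, with replicate 5 below every control. The difference was -0.688 ± 0.226 (SE; limma, unadjusted p = 0.00525).

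Dnase2b, an acid DNase, scored 0.997, 0.757 and 0.319 at 500 ppm and 0.28, 0.248, 0.413 and 0.125 at 2500 ppm. Replicates 1 and 2 of the low level lay above every control, the highest of which was 0.614. Replicate 5 of the low level and replicate 3 of the high level lay within the control range, and the remaining high arrays below it. Dnase2b differed from control by 0.214 at 500 ppm and by -0.211 at 2500 ppm (limma, adjusted p = 0.541 and 0.201). Neither passed. The dose difference was -0.425 ± 0.109 (SE), with a 95% interval of -0.648 to -0.201 (limma, unadjusted p = 0.000588). Without replicate 5 it was -0.611, and its adjusted p of 0.0537 was the smallest that any alternative fit gave between the 2 levels. The Dnase2b difference was -0.272 without replicate 1 at 500 ppm. Mtmr7, a phosphoinositide phosphatase of the myotubularin family, scored 1.15, 0.587 and 0.101 at 500 ppm and 0.141, 0.0772, 0.18 and -0.18 at 2500 ppm. Replicate 5 lay among the high arrays and below the control minimum of 0.547, and Mtmr7 fell against control at 2500 ppm by 0.732 (limma, adjusted p = 0.0377). This call was lost without any 1 of the 4 high arrays or control replicate 4, 6 or 7 (adjusted p = 0.0684 to 0.183). The Mtmr7 call was also lost among arrays of a GAPDH difference of 0.9 or lower (adjusted p = 0.424) and with the 3' minus 5' difference as covariate (0.114). Adgrv1, a very large adhesion receptor, scored 0.348, 0.264 and 0.166 at 500 ppm and 0.0866, 0.0938, 0.0488 and -0.00504 at 2500 ppm, without overlap. Its difference was -0.203 ± 0.0704 (SE), and it fell against control at 2500 ppm by 0.354 (limma, adjusted p = 0.00602), but not without replicate 4 of that level (adjusted p = 0.0628). Map2k6, a kinase upstream of p38, also separated without overlap, with a difference of -0.238. Aldh1b1, a mitochondrial aldehyde dehydrogenase, differed by -0.403, Myo7b, a brush border myosin, by -0.248, Csap1 by -0.204 and Dipk1c by -0.126, and their groups overlapped. Csap1 scored -0.349, 0.081 and -0.393 at 500 ppm, and without replicate 2 of that level its difference was -0.053. The remaining gene of the 12 carries a microRNA symbol in the array annotation and was not matched to a transcript.

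Among the 3 arrays at 500 ppm, replicate 5 lay closest to the high level. For each gene, the score of each low array was set against the range of the 4 high arrays. Over all 14217 genes, replicate 5 lay within that range for 71.5%, replicate 1 for 52.9% and replicate 2 for 41.1%. Of the 15 followed genes, replicate 5 lay within it for 15, replicate 2 for 4 and replicate 1 for 1. For the 17 CAR and PXR genes the counts were 17 for replicate 5, 10 for replicate 2 and 7 for replicate 1, and for the 21 urea cycle and amino acid genes 21, 12 and 13. In the same order they were 13, 8 and 7 for the 14 glucose metabolism genes. For the 26 glutathione transferases and NRF2 genes they were 18, 7 and 10. There the share of replicate 5, 69.2%, was below its share over all genes. The correlation of replicate 5 with the high arrays across probe sets was 0.993 to 0.995, and its correlation with replicate 1 of its own level was 0.992. Its label gives it as 500 ppm, and it was kept there. Without it, 934 probe sets had an unadjusted p below 0.05 and 0 passed the adjusted threshold. Without replicate 2 the unadjusted count was 259, and without replicate 1 it was 405. In the high group, replicate 3 scored lowest for Aldh1a1, Ces2c, Abcc3, Cyp1a1, Gsta3 and Cyp4a8, and the remaining 3 high arrays lay above every low array for each of these genes. Without replicate 3, 0 probe sets passed and the smallest adjusted p was 0.281. Why replicate 5 stood apart from replicates 1 and 2 was not tested.

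**Figure D3:**
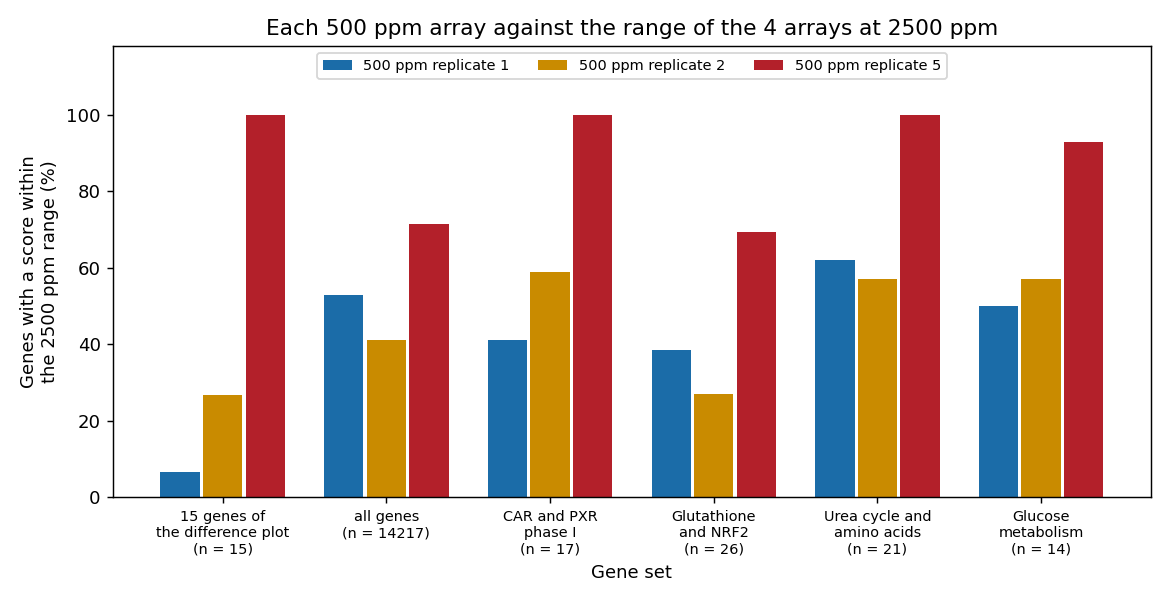
Percentage of genes (vertical axis) for which each of the 3 arrays at 500 ppm scored within the range of the 4 arrays at 2500 ppm, for 6 gene sets (horizontal axis, with the number of genes). Replicate 5 was within the range for 100% of the 15 followed genes, 100% of the CAR and PXR genes and 71.5% of all genes. For the glutathione and NRF2 genes it was within the range for 69.2%.

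Whole gene lists are described by counts and medians, beside the median over all genes of -0.00826 and the share of genes with a positive difference, 42.6%. No member of any of the 25 pathway lists passed the adjusted threshold between the levels. Leaving out each of the 7 propiconazole arrays in turn changed the sign of the median in 13 of the 25 pathway lists and in 6 of the 9 cell type lists, so values without single arrays are given with the medians. Of the 17 measured CAR and PXR phase I genes, 14 were positive with a median difference of 0.232, and 2 had an unadjusted p below 0.05, Aldh1a1 and Ces2c. Ephx1, the microsomal epoxide hydrolase, differed by 0.57 and Alas1, the first enzyme of heme synthesis, by 0.232, while the receptor genes Nr1i2 (PXR) and Nr1i3 (CAR) differed by -0.145 and -0.0295. The mean score of the list was 2.89, 3.01 and 3.22 at 500 ppm and 3.18, 3.65, 3.08 and 3.40 at 2500 ppm. The highest value belonged to replicate 2 of the high level, the array with the highest hepatocyte marker mean, and without it the list's median difference was 0.0541, the lowest of a range of 0.0541 to 0.323. Its part in the result was otherwise not tested.

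Of the 26 measured glutathione transferases and NRF2 genes, 22 were positive with a median of 0.183, and 3 had an unadjusted p below 0.05: Gsta3, Akr7a3 and Me1. All 4 high arrays lay above all 3 low arrays for 5 of the 26, against 1.27% of all genes: Akr7a3, Gsr, Gstt1, Mgst2 and Txnrd1. The list was chosen with earlier results of these data known, so this count beside that share is not a test. Gsr, which regenerates glutathione, scored 0.399, 0.274 and 0.452 at 500 ppm and 0.637, 0.544, 0.486 and 0.786 at 2500 ppm. Txnrd1, the cytosolic thioredoxin reductase, scored 1.95, 1.81 and 2.08 at 500 ppm and 2.13, 2.12, 2.12 and 2.15 at 2500 ppm. In both genes the margin between the highest low array, replicate 5, and the lowest high array was small. Nqo1, a quinone reductase under NRF2, differed by 0.285 with overlap, and Hmox1, heme oxygenase, by -0.0398. The median of this list lay between 0.128 and 0.24 over 18 alternatives. Of the 15 glucuronosyltransferases and sulfotransferases, 13 were positive with a median of 0.163. This median was 0.0409 without replicate 2 at 500 ppm, and 0.064 and 0.0691 without replicate 2 or 4 at 2500 ppm. Of the 14 drug transporters, 10 were positive, with a median of 0.0552, which was -0.0104 without replicate 2 at 2500 ppm and 0.0131 without replicate 2 at 500 ppm.

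Lists of amino acid and glucose metabolism had the lowest medians in the fit of all arrays. Of the 21 genes of the urea cycle and amino acid breakdown, 2 were positive, with a median of -0.181, and 1 had an unadjusted p below 0.05, which was Sds. Hal, histidine ammonia lyase, differed by -0.387, Got1, an aspartate aminotransferase, by -0.378, Gnmt, glycine methyltransferase, by -0.371 and Gpt, alanine aminotransferase, by -0.329, and the groups overlapped for each. Cps1, the first enzyme of the urea cycle, differed by -0.0552. The list's mean score was 3.31, 3.37 and 3.00 at 500 ppm and 2.89, 3.37, 2.89 and 2.89 at 2500 ppm, so replicate 5 at 500 ppm and replicate 2 at 2500 ppm each stood with the other level. Its median was -0.285 without the former, -0.299 without the latter and -0.101 without replicate 3 at 2500 ppm. Of the 14 genes of glucose metabolism, 2 were positive, with a median of -0.17, which was -0.0985 without replicate 1 at 500 ppm and -0.113 without replicate 4 at 2500 ppm. They included Pfkfb1, which sets the level of a glycolysis activator (-0.421), Pklr, pyruvate kinase (-0.287), Pc, pyruvate carboxylase (-0.206), and Pck1, the key enzyme of gluconeogenesis (-0.205).

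Of the 22 genes of fatty acid and triglyceride synthesis, 5 were positive, with a median of -0.108, and the 1 with an unadjusted p below 0.05, Me1, the malic enzyme, was among the positive ones at 0.335. Scd, the stearoyl-CoA desaturase, scored 3.79, 3.43 and 1.69 at 500 ppm and 2.29, 1.60, 1.85 and 2.38 at 2500 ppm. Its low arrays were split by more than the 2 levels differed, with replicate 5 below 3 of the 4 high arrays, and the difference was -0.939 ± 0.542 (SE; limma, unadjusted p = 0.0946). Thrsp, a lipogenic regulator, differed by -0.639 and Fasn, fatty acid synthase, by -0.379. The list's median was -0.168 without replicate 5 and -0.0703 without replicate 1 of the low level. Of the 26 PPAR alpha and fatty acid oxidation genes, 15 were positive with a median of 0.0307, which ran from -0.0118 without replicate 2 to 0.0686 without replicate 3 at 2500 ppm. Of these genes, 4 had an unadjusted p below 0.05, all positive: Cidea, Cyp4a8, Vnn1, a pantetheinase (0.378), and Acot2, a mitochondrial thioesterase (0.326). Cpt1a, the carnitine palmitoyltransferase of liver, differed by -0.203.

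Of the 17 cholesterol synthesis genes, 13 were positive with a median of 0.0773, and 0 had an unadjusted p below 0.05 in limma. The median was 0.0283 without replicate 2 and 0.153 without replicate 3 at 2500 ppm. Idi1, which isomerises isopentenyl diphosphate, differed by 0.378, Sqle, the squalene epoxidase, by 0.188, and the SREBP partner Insig1 by -0.421. The differences of Idi1 and Insig1 were large beside the median absolute difference over all genes, 0.0316, and the groups overlapped for both. Of the 15 bile acid genes, 6 were positive, and Cyp7b1 was the only 1 with an unadjusted p below 0.05. Nr0b2, the repressor SHP, scored 1.14, 1.92 and 0.78 at 500 ppm and 1.29, 0.329, 1.17 and 0.481 at 2500 ppm, with wide overlap.

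**Figure D4:**
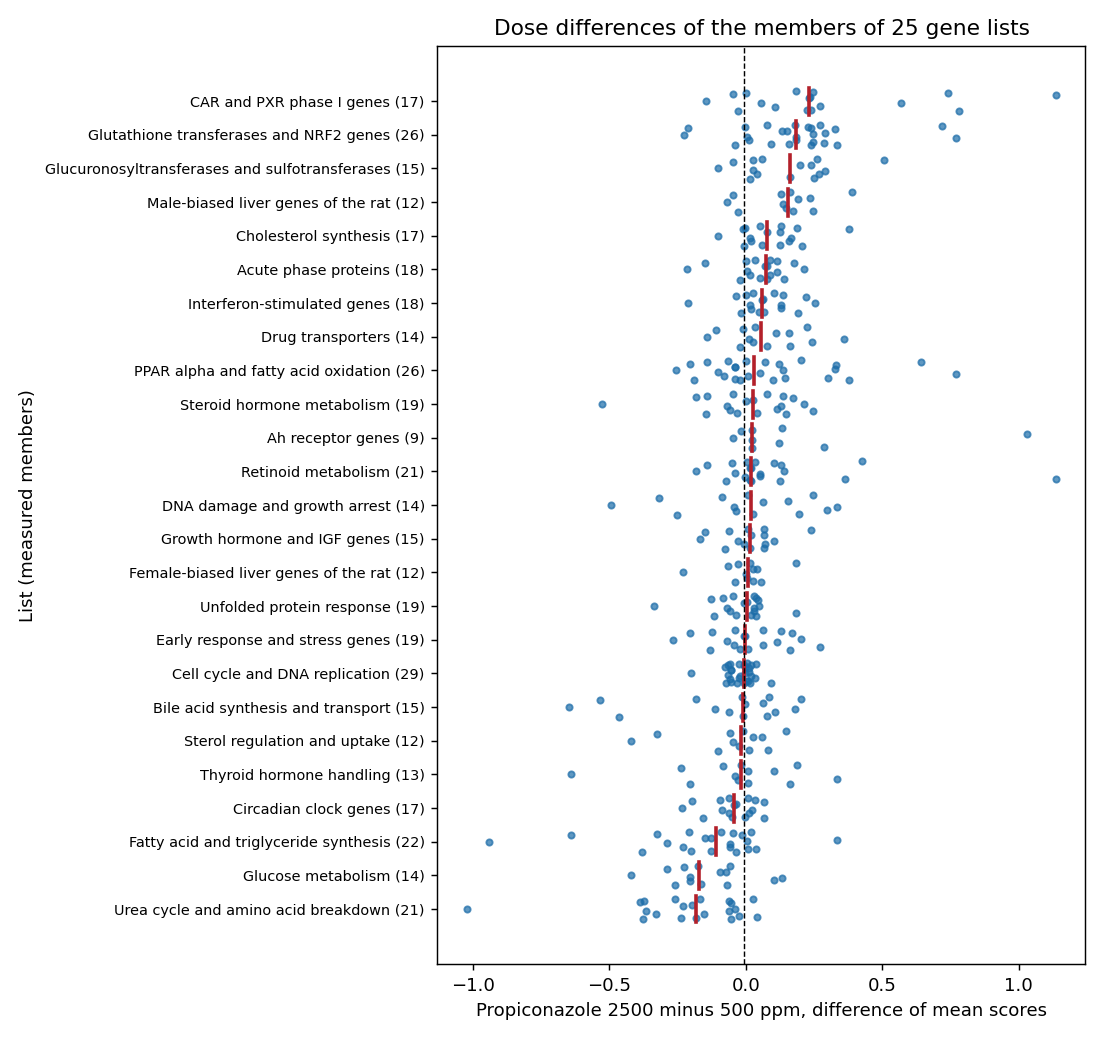
Differences of mean scores between 2500 and 500 ppm (horizontal axis) for the measured members of 25 gene lists (vertical axis, with the number of members); points are genes, red bars list medians and the dashed line the median over all genes, -0.00826. List medians run from -0.181 for the urea cycle and amino acid list to 0.232 for the CAR and PXR list.

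The cell type marker lists showed no member with an unadjusted p below 0.05. The median difference over the hepatocyte markers was 0.0554, but -0.142 without replicate 2 at 2500 ppm and -0.0334 after quantile normalization, so its direction was not settled. The medians over the Kupffer cell and macrophage markers, -0.0615, and the liver endothelial markers, -0.0515, were 0.00621 and 0.0178 without replicate 4 at 2500 ppm. That over the stellate cell and fibroblast markers was -0.029, or -0.0343 to -0.0177 leaving out single arrays. The 5 measured red blood cell markers were all negative, from -0.24 to -0.00978. The mean score of the Kupffer cell and macrophage list was 1.32 to 1.38 at 500 ppm and 1.13 to 1.45 at 2500 ppm, and that of the red blood cell list 0.883 to 1.01 and 0.839 to 0.945. In whole tissue, fewer cells of a type and less RNA per cell cannot be told apart.

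The difference between a higher and a lower level was also available for the other fungicides, at other doses, and is given as values only. For Aldh1a1, triadimefon at 1800 minus 500 ppm gave 1.66 and myclobutanil at 2000 minus 500 ppm gave 0.319, beside 1.14 for propiconazole. For Abcc3 the values were 0.757, 0.229 and 0.358 in the same order, and for Ces2c 1.34, 0.509 and 0.783. For Cyp51 they were 1.06, -0.39 and 0.16. For Cyp4a8 the order differed, with -0.124 for triadimefon, 0.468 for myclobutanil and 0.643 for propiconazole. Cidea gave 0.409, 0.263 and 0.768. The doses differ between the compounds, and whether these differences differ from each other was not tested. The GAPDH 3' minus 5' difference was 0.729 or higher in every triadimefon array at 1800 ppm and 0.338 or lower in every one at 500 ppm. In myclobutanil it reached 2.62 at 500 ppm and stayed below 0.9 at 2000 ppm. Triadimefon 1800 ppm replicates 2 to 4 are animals 3153 to 3170, and the other triadimefon animals are numbered 2672 to 2696. The part of RNA integrity and animal series in these values was not tested.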

How the data were processed

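Per the labels' protocols, liver RNA of single rats was measured on Affymetrix rat arrays. The authors deposited 1 score for each probe set and array. How the score was summarised and normalised, its scale and its log base were not stated in the sources used here. The test had been designed for log values and was run on the deposited scores unchanged. Affymetrix control probe sets were left out, which left 31042 probe sets. Of these, 20826 carried 1 gene symbol, 436 several and 9780 none. A gene was represented by its probe set of highest mean score. The 32 arrays with values were fitted as 7 groups with limma 3.58.1 in R 4.3.3 (25 residual and 1.995 prior degrees of freedom), two-sided, with Benjamini-Hochberg adjustment over all probe sets and a threshold of 0.05. The fit was checked on simulated data. That check required recovery only of shifts larger than any difference seen between the levels. It does not show how often smaller ones would be found. Single values were compared by exact permutation over arrays with scipy 1.17.1. The number of arrays limits the precision.

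Named genes were the 12 of smallest p in each direction, the 2 of smallest p in each of 25 pathway lists and 15 fixed genes, 69 in all. A few further list members, chosen after their values were seen, are named by their role, and so are the members without overlap. The groups, lists and fixed genes were chosen with earlier results of these data known. Alternatives were other sets of arrays, quantile normalization, centring and scaling, a filter on the dimmest 40% of probe sets, trend and robust settings, RNA integrity as covariate or filter, the replicate number as a block, the mean over probe sets and leaving out each array. Propiconazole 500 and 2500 ppm share replicate numbers 1 and 2 in the labels. The deviations of the same-numbered arrays from their group means correlated at 0.181 and -0.0449, so the numbers were not taken to pair animals.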

Additional observations from a re-analysis of the deposited data

Results flagged for a closer look

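Dixon's test at 95% was run on 140 groups of values, 138 of them the 69 named genes at 2500 ppm and in the controls and 2 the 3' minus 5' difference. In 7 groups, all of named genes, 1 array stood apart from the rest by a gap that took most of the group's range. Chance flags about 1 in 20 groups. At 2500 ppm, Cidea scored 2.01 in replicate 1, while the other 3 arrays ran from 1.23 to 1.35. Abcc3 scored 0.843 in replicate 4, against 0.227 to 0.314 in the others. Cyp1a2 scored 4.74 in replicate 2, against 3.85 to 3.99, and A2m, a protease inhibitor of the acute phase, scored 0.582 in the same array, against 0.268 to 0.314. Kif11, a mitotic kinesin, scored -0.0885 in replicate 4, against -0.176 to -0.169. In the controls, replicate 7 stood apart for Aldh1a1 at 0.888, against 1.83 to 2.09, and for Cyp2c12, a female-biased P450, at 1.56, against 0.605 to 0.903.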

How the results depend on the processing

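Between 2500 and 500 ppm, 0 probe sets passed under every alternative run, including the replicate block (0 passed, 462 at an unadjusted p below 0.05) and leaving out each array (0 to 0). The unadjusted count was 742 in a fit of the 2 groups alone, 859 with only arrays of GAPDH difference 0.9 or lower and 236 without replicate 4 at 2500 ppm. Of 1181 alternative values of named genes, 1177 kept their sign and none passed. The sign turned for Slco1a1 without replicate 2 at 500 ppm (-0.0497; -0.0497 to 0.297 leaving out single arrays), for Cyp2c12 without replicate 1 at 500 ppm (0.0343; -0.501 to 0.0343) and for Cyp1a2 without replicate 1 at 500 ppm (-0.0369) or replicate 2 at 2500 ppm (-0.074; -0.074 to 0.246). The cause was not tested. For 500 ppm against control the count was 2 after quantile normalization, 1 with arrays centred and scaled, 1 with only arrays of GAPDH difference 0.9 or lower, and 0 to 1 leaving out single arrays. For 2500 ppm against control, 79 in the text, it was 9 with only animals numbered below 3000, 311 after quantile normalization, 216 centred and scaled, 138 with trend and robust settings, 25 with RNA integrity as covariate, 21 with only arrays of GAPDH difference 0.9 or lower, 10 with the replicate block and 8 to 1030 leaving out single arrays. Of the 17 named genes called there, 4 passed with the replicate block. Each kept its sign in every alternative run. The sign of the median turned under at least 1 alternative in 21 of the 34 lists. Without replicate 2 at 2500 ppm it turned for hepatocyte markers (0.0554 to -0.142), acute phase (0.0735 to -0.122), steroid hormone (0.0247 to -0.0628), drug transporter (0.0552 to -0.0104), PPAR alpha (0.0307 to -0.0118), female-biased (0.0093 to -0.0325), growth hormone (0.0161 to -0.0171), early response (-0.00477 to 0.0065) and unfolded protein response genes (0.00363 to -0.0387). After quantile normalization it turned for hepatocyte markers (-0.0334), acute phase (-0.00429) and early response genes (0.00135). The number of arrays and the spread between the 3 arrays at 500 ppm limit the comparison.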

Other observations

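Of the 18 acute phase genes, 14 were positive with a median difference of 0.0735 between 2500 and 500 ppm, and 0 had an unadjusted p below 0.05 in limma. Without replicate 2 at 2500 ppm the median was -0.122. Of the 18 interferon-stimulated genes, 14 were positive with a median of 0.0605, which was -0.0137 without replicate 1 at 2500 ppm. Among them Ifit1, an antiviral RNA binding protein, was the only 1 with an unadjusted p below 0.05 (0.0414). Ifit1 scored -0.255, -0.0835 and -0.252 at 500 ppm and 0.287, -0.113, -0.194 and -0.00035 at 2500 ppm, so its groups overlapped. Of the 14 DNA damage and growth arrest genes, 2 had an unadjusted p below 0.05 on the higher side, Mdm2 and Ccng1, both targets of p53, and 1 on the lower side, Rprm, a cell cycle inhibitor. Ccng1 scored 0.763, 0.674 and 0.872 at 500 ppm and 1.30, 0.791, 0.936 and 1.03 at 2500 ppm, with overlap. Rprm fell against control at 2500 ppm by 0.524 (limma, adjusted p = 0.0415), but not without replicate 1, 2 or 4 of that level or any 1 of control replicates 4 to 7 (adjusted p = 0.0783 to 0.182). The Rprm call was also lost among arrays of a GAPDH difference of 0.9 or lower (adjusted p = 0.516) and with RNA integrity as covariate (0.251). The 29 cell cycle genes had differences of -0.202 to 0.0913.

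The 12 male-biased liver genes had a median of 0.154, which was 0.00449 without replicate 2 at 2500 ppm, and the 12 female-biased ones a median of 0.0093, which was -0.0325 without the same array. Of the 19 unfolded protein response genes, 10 were positive, and of the 17 circadian clock genes, 6 were. Hlf, a clock output factor, scored 0.848, 1.08 and 0.775 at 500 ppm and 0.607, 0.757, 0.67 and 0.636 at 2500 ppm, without overlap, and its difference was -0.233 (limma, unadjusted p = 0.304). The steroid hormone list had 1 member with an unadjusted p below 0.05, Cyp7b1.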
